A study of Mus musculus with 16 samples.

Results

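Levels of 10 genes of antigen presentation by major histocompatibility complex (MHC) molecules were followed in cells sorted as muscle stem cells (MuSCs) from control mice and from mice labelled TRF2 knockout, before and after muscle injury. The genes were taken by name from the table of 24411 genes, and all 10 were found there. The class I set held the heavy chains *H2-K1* and *H2-D1*, their light chain *B2m*, the peptide transporter subunit *Tap1* and the loading chaperone *Tapbp*. The class II set held the chain genes *H2-Aa*, *H2-Ab1* and *H2-Eb1*, the invariant chain *Cd74* and the transactivator *Ciita*. RNA-seq was made from 16 libraries of sorted mouse MuSCs, 4 in each of 4 groups. Controls were labelled Wildtype, and the other genotype was labelled TRF2 knockout and is called cKO here. In the study's model, floxed TRF2 alleles are combined with a Pax7-CreERT2 driver that tamoxifen switches on. Deletion in that model is limited to cells in which *Pax7* drives Cre at the time of tamoxifen. Each genotype was sampled without injury and at 3 days post-injury (DPI), after 10 µl of the snake venom toxin notexin had been placed in the tibialis anterior muscle. The labels give no age, and the study's methods start tamoxifen in young adult mice. Whether the controls of these libraries carried Cre or received tamoxifen is not in the labels. Cells had been sorted as negative for CD45, CD31, CD11b and Sca1, which are encoded by *Ptprc*, *Pecam1*, *Itgam* and *Ly6a*, and as positive for α7-integrin with VCAM or CD34.

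MHC class I molecules are carried by nearly all nucleated cells and show peptides made in the cell's own cytoplasm to CD8 T cells. A heavy chain folds with B2M in the endoplasmic reticulum, where TAP pumps peptides in from the proteasome and tapasin, the product of *Tapbp*, holds the empty molecule beside the transporter. Class II molecules are carried mainly by dendritic cells, B cells and macrophages, and show peptides from ingested proteins to CD4 T cells. CD74 fills the groove of newly made class II chains, and CIITA, which does not itself bind DNA, switches on the class II genes through factors that sit on the X and Y boxes of their promoters. In C57BL/6 mice, the background of the study, no E alpha chain is made, so that *H2-Eb1* has no partner there.

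On the GRCm38 build, the heavy chain, loading and class II chain genes lay together on chromosome 17. *Tapbp* covered chr17:33915899-33929292 on the plus strand and *H2-K1* covered chr17:33996017-34000347 on the minus strand. *Tap1* followed at chr17:34187553-34197225 (plus strand), *H2-Ab1* at chr17:34257689-34269419 (plus strand), *H2-Aa* at chr17:34282744-34287823 (minus strand) and *H2-Eb1* at chr17:34305867-34316674 (plus strand). *H2-D1* lay at chr17:35262730-35267499 on the plus strand. Outside that complex, *B2m* lay at chr2:122147686-122153083 and *Ciita* at chr16:10480059-10528418, both on the plus strand. The last 25888 bases of *Ciita* overlap *Dexi*, a gene of the opposite strand, and *Tapbp* overlaps *Zbtb22* over 3422 bases of the same strand.

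Promoters of the presentation genes are known for short elements that let them respond together, so some of them are shown. Entries of 7 of the 10 genes were used from RefSeq (GRCm38.p6), without *H2-Ab1*, *Cd74* and *Ciita*, and the 180 bases before the annotated start are printed for 5 of them, 5′ to 3′ on the gene's strand. Capitals mark matches on either strand to GGGATTCCC (a site of the NF-κB type), AANNGAAA (the core of an interferon response element), GCAAC (part of the X1 box), TGACG (part of the X2 box) and GATTGG (the Y box). These motifs were chosen after these promoters had been read.
H2-K1 (chr17:34000348-34000527, minus strand): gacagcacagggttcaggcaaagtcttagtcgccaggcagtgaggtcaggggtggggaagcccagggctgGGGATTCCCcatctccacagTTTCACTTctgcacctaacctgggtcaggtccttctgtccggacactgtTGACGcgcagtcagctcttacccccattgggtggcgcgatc
H2-D1 (chr17:35262914-35263093, plus strand): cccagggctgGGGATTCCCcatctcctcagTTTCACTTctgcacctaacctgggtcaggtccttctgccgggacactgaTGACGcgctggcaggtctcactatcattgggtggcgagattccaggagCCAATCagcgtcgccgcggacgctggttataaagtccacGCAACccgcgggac
B2m (chr2:122147507-122147686, plus strand): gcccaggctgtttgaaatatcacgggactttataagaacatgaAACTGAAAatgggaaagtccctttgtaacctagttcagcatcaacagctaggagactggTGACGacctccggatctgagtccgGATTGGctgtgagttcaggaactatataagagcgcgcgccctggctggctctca
H2-Aa (chr17:34287824-34288003, minus strand): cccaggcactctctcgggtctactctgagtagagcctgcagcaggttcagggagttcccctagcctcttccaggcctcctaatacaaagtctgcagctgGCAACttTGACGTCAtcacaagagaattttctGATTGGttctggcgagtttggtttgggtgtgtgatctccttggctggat
H2-Eb1 (chr17:34305687-34305866, plus strand): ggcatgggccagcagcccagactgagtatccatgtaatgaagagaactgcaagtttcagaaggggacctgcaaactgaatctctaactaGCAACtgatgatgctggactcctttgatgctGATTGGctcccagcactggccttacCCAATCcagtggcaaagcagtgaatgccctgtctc

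The class I heavy chain promoters matched each other when *H2-D1* was shifted by 60 bases, with 176 of 240 compared bases identical (73.3%). In *H2-K1* the NF-κB type match began 110 bases before the start and the interferon response match 90 bases before it. In *H2-D1* the same pair began 170 and 150 bases before the start, at the same spacing. GGGATTCCC was held by 0.189% of the 27025 promoter windows of that length, and by these 2 of the 7 searched members. AANNGAAA stood in 15.2% of windows and in *H2-K1*, *H2-D1* and *B2m*. In *H2-Aa* the X1, X2 and Y matches began 81, 74 and 49 bases before the start, and in *H2-Eb1* the X1 and Y matches began 91 and 60 bases before it. The X1, X2 and Y letters were held by 23.3%, 15% and 12.8% of windows, and by 3, 5 and 4 of the 7 searched members, class I genes included. Such matches describe the letters and not the binding of a factor.

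Estimated counts totalled 620506 to 1351130 a library. Levels are given in CPM, counts scaled to a common library size after adjustment by TMM factors, and at this depth 10 CPM rested on few reads. One library stood apart. Replicate 3 of the cKO 3 DPI group had counts for 15387 genes, against 19996 to 21879 in the other libraries, and calls among the members that change without it are given with both values. *Terf2*, which encodes TRF2, was lower in each uninjured cKO library (27.0 to 58.4 CPM) than in each control (64.6 to 94.2 CPM), although this did not pass the test (adjusted p = 0.199, edgeR quasi-likelihood with Benjamini-Hochberg adjustment). At 3 DPI *Terf2* was at 20.3 to 82.2 CPM in the libraries labelled TRF2 knockout and at 34.0 to 49.5 CPM in controls, so the label was not borne out by that gene there. Reads outside the floxed part of the gene would not check it. *Pax7*, which marks MuSCs, was at 692 to 1439 CPM in uninjured libraries and at 23.7 to 190 CPM at 3 DPI. The description of each library carries a code prefix of unstated meaning. No prefix was shared by both genotypes without injury, so prefix and genotype cannot be told apart there.

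Without injury, the class I chains and *Tapbp* were at moderate levels, and *Tap1* and the class II genes at low ones. On a per-length scale (TPM, in which counts are divided by transcript length and brought to a common total), *H2-D1* was at 277 ± 48.9 (SD, n = 4), *H2-K1* at 263 ± 8.96 and *B2m* at 242 ± 25.2 in uninjured controls. These neighbouring levels did not differ beyond their spread. *Tapbp*, at 71.1 ± 16.6 TPM, and *Tap1*, at 15.4 ± 7.07 TPM, were lower. The class II genes lay at 7.93 ± 2.31 TPM for *Ciita* and at 10.9 to 15.2 TPM for the other members. At 3 DPI the order had changed in controls, with *B2m* first at 1800 ± 551 TPM, then *H2-D1* at 1028 ± 218, and *Cd74*, at 612 ± 65.5, level with *H2-K1*, at 602 ± 126. *Ciita* was the lowest at 18.7 ± 4.57 TPM. Injured cKO libraries had *B2m* first as well, at 1337 ± 310 TPM, then *H2-D1* at 852 ± 149, *H2-K1* at 568 ± 124 and *Cd74* at 539 ± 170, and the last 2 did not differ beyond their spread.

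**Figure D1:**
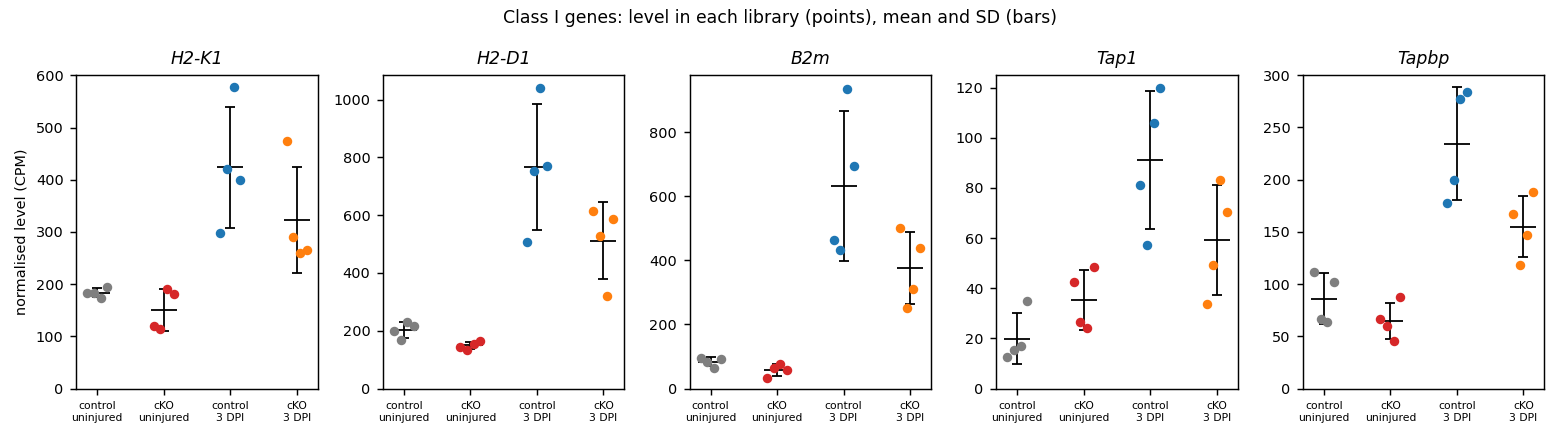
Normalised level in CPM (linear axis from 0) of the 5 class I genes in each library of the 4 groups; points are libraries, the horizontal mark is the mean and the bar is 1 SD (n = 4). For each gene, all 4 control 3 DPI libraries sit above all 4 uninjured controls, and B2m reaches 935 CPM.

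All 10 genes rose at 3 DPI in control libraries, from 2.33-fold for *H2-K1* and *Ciita* to 40.4-fold for *Cd74*. In the same 3 DPI libraries 18 myeloid markers summed to 5913 to 8102 CPM and 10 MuSC markers to 936 to 1309 CPM, against 143 to 232 CPM and 3441 to 5123 CPM without injury. The part of myeloid cells in the rise was not tested. This comparison asked how transcripts change in the sorted cells 3 days after notexin. A gene was called when its adjusted p was below 0.02 and its fold change exceeded 1.5. Of 15356 genes tested, 10.8% were called higher, and 12.3% were higher in every 3 DPI library than in every uninjured one. All 10 members met both conditions. *H2-Aa*, *H2-Ab1*, *H2-Eb1* and *Cd74* passed the filter on low counts only through the 3 DPI libraries. With no such filter all 10 were called as well.

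The class I light chain changed most within its class. *B2m* stood at 93.8, 83.4, 64.6 and 93.4 CPM in uninjured controls and at 464, 434, 935 and 694 CPM in control 3 DPI libraries. Every injured library was thus above every uninjured one, and the third stood highest. The log2 fold change was 2.92 (SE 0.22, edgeR quasi-likelihood adjusted p = 2.76e-14), or 7.57-fold. *H2-D1* went from 200, 168, 231 and 215 CPM to 509, 753, 1042 and 770 CPM, a log2 fold change of 1.92 (SE 0.20). *H2-K1* went from 182, 184, 174 and 194 CPM, a narrow range, to 297, 421, 578 and 400 CPM, a log2 fold change of 1.22 (SE 0.20). Both heavy chains therefore moved without overlap between the groups, and the third 3 DPI library was again the highest for each.

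*H2-K1* and *H2-D1* are related genes that share parts of their sequence. Of the 50-base words in their longest coding transcripts, 8.79% and 14.3% were also found in transcripts of other genes, so that some of their reads could have been assigned to another gene. For *H2-K1* 109 of its 138 shared words were shared with *H2-D1*, whereas *H2-D1* shared the most, 152, with *H2-Q1*. *H2-L*, a further heavy chain gene, was at 0 CPM in 8 of the 16 libraries. When the counts of *H2-K1*, *H2-D1* and *H2-L* were summed, a choice made after seeing the data, the rise was called in both genotypes. *H2-D1* was called on its own in both genotypes, so the sum cannot show a rise of *H2-K1* apart from it. That sum does not take in the H2-Q genes.

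For peptide loading, *Tap1* was at 12.5, 15.3, 17.0 and 34.9 CPM in uninjured controls and at 81.3, 57.2, 106 and 120 CPM at 3 DPI. Its lowest injured library was above its highest uninjured one, and the log2 fold change was 2.20 (SE 0.30, edgeR adjusted p = 1.38e-07). *Tapbp* was at 112, 66.4, 63.5 and 102 CPM without injury and at 177, 200, 278 and 284 CPM after it. The groups did not overlap, and the log2 fold change was 1.46 (SE 0.21).

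**Figure D2:**
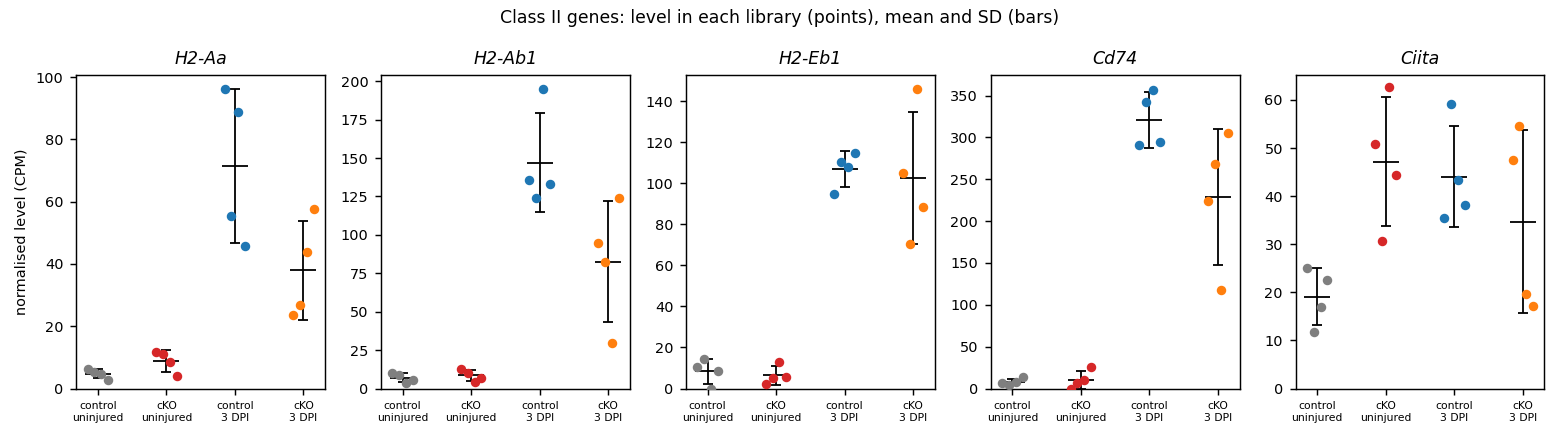
Normalised level in CPM (linear axis from 0) of the 5 class II genes in each library of the 4 groups; points are libraries, the horizontal mark is the mean and the bar is 1 SD (n = 4). The 3 chain genes and Cd74 are near 0 without injury and high in both injured groups, whereas Ciita in uninjured cKO libraries (30.6 to 62.7 CPM) overlaps its level in injured controls (35.5 to 59.2 CPM).

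Class II transcripts rose from a trace. *Cd74* was at 6.25, 4.48, 7.94 and 13.2 CPM in uninjured controls, which is 5 to 14 counts a library, and at 291, 342, 357 and 295 CPM in control 3 DPI libraries. Its log2 fold change of 5.34 (SE 0.27, edgeR quasi-likelihood adjusted p = 5.68e-20) was the largest of the 10. *H2-Ab1*, the beta chain of I-A, was at 9.82, 8.97, 3.4 and 5.66 CPM without injury and at 136, 124, 195 and 133 CPM at 3 DPI, a log2 fold change of 4.36 (SE 0.30). The alpha chain of I-A, *H2-Aa*, was at 6.25, 5.38, 4.53 and 2.83 CPM and then at 96.1, 55.3, 88.8 and 45.9 CPM, a log2 fold change of 3.88 (SE 0.39). In proportion to the mean, its 3 DPI values varied more than those of the other class II genes. *H2-Eb1* was at 10.7, 14.4, 0 and 8.49 CPM without injury and at 94.6, 111, 108 and 115 CPM after it, a log2 fold change of 3.62 (SE 0.35) with a narrow injured range. For these 4 genes no library of one group reached the other group.

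The transactivator changed least among the class II genes. *Ciita* was at 25.0, 11.7, 17.0 and 22.6 CPM in uninjured controls and at 35.5, 59.2, 43.4 and 38.2 CPM at 3 DPI. The groups did not overlap, and the log2 fold change was 1.22 (SE 0.34, edgeR adjusted p = 0.00503). This call was lost without uninjured control replicate 2 (adjusted p = 0.0367), without control 3 DPI replicate 2 (0.0456), with all 16 libraries in 1 fit (0.0677) and with the abundance-scaled table (0.0744). Among the libraries of prefix JH140 alone, which are 1 uninjured and 2 injured controls, its log2 fold change was 0.85, and those of the other 9 members ran from 1.33 for *H2-K1* to 4.83 for *H2-Ab1*. The lone uninjured library has no spread of its own.

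**Figure D3:**
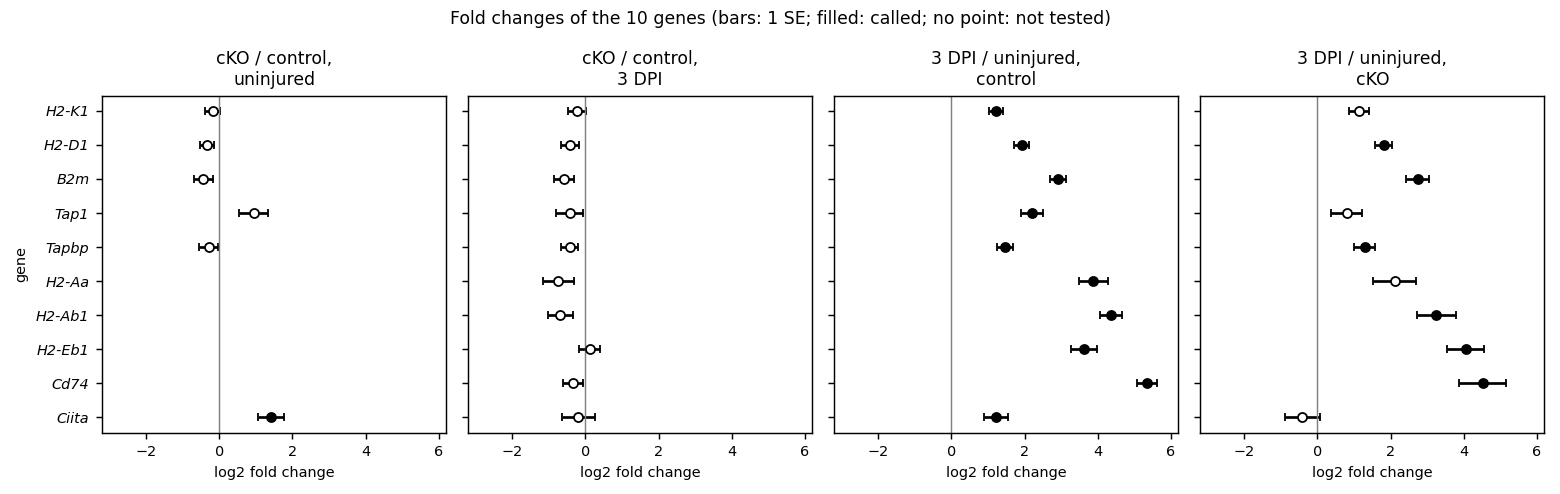
Log2 fold changes (horizontal axis) of the 10 genes in the 4 pairwise comparisons; bars are 1 SE, filled points were called and a gene without a point was not tested. All 10 points are filled for injury in controls, 6 for injury in cKO libraries, 1 (Ciita) for genotype without injury and none for genotype at 3 DPI.

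In the libraries labelled TRF2 knockout, 6 of the 10 genes were called higher at 3 DPI, namely *Cd74*, *H2-Eb1*, *H2-Ab1*, *B2m*, *H2-D1* and *Tapbp*. Of the 14578 genes tested, 2.43% were called higher and 5.82% were higher in every injured library, a condition that 8 of the 10 members met. The class II chain genes and *Cd74* passed the filter on low counts only through the injured libraries here too. With no filter 5 members were called, and *Tapbp* was not (adjusted p = 0.0245). Without cKO 3 DPI replicate 3, the library that stood apart, 8 members were called, and the calls over all genes also rose, to 803 higher of 15547. Among only the libraries of prefix JH139, 1 uninjured and 2 injured, *Tapbp* had a log2 fold change of 1.02 and *H2-D1* of 1.53. *B2m* was at 2.75, *Cd74* at 3.12, *H2-Ab1* at 3.55 and *H2-Eb1* at 4.51, whereas *Ciita* was lower in both injured libraries than in the uninjured one. A lone uninjured library leaves little to test with, so the calls of that fit are not given. The common coefficient of variation between replicates was 0.524 here and 0.276 in the control comparison, so equal changes were less readily called.

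*Cd74* was at 0, 6.13, 9.98 and 25.6 CPM in uninjured cKO libraries and at 224, 269, 118 and 305 CPM at 3 DPI, a log2 fold change of 4.51 (SE 0.63, edgeR quasi-likelihood adjusted p = 0.000441). With the abundance-scaled table it was 4.54 and not called (adjusted p = 0.0397). The third injured library was the lowest and still above every uninjured one. *H2-Eb1* went from 2.36, 5.11, 12.8 and 5.39 CPM to 105, 70.6, 146 and 88.6 CPM, a log2 fold change of 4.05 (SE 0.51), and here the third injured library was the highest. *H2-Ab1* went from 13, 10.2, 4.28 and 6.74 CPM to 94.8, 82.4, 29.6 and 124 CPM, a log2 fold change of 3.25 (SE 0.53). The 3 class II genes that were called thus ordered the same injured libraries differently. *H2-Aa* was at 11.8, 11.2, 8.55 and 4.04 CPM without injury and at 23.7, 26.8, 43.8 and 57.7 CPM after it. Its groups did not overlap, but its log2 fold change of 2.11 (SE 0.58) had an adjusted p of 0.0487 and was not called. It was called without cKO 3 DPI replicate 3 (2.03, adjusted p = 0.0123), with DESeq2 (0.00622), with limma (0.0164) and with all 16 libraries in 1 fit (0.0021).

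Among class I genes, *B2m* was at 31.9, 63.3, 75.5 and 59.3 CPM in uninjured cKO libraries and at 500, 252, 312 and 439 CPM at 3 DPI, a log2 fold change of 2.74 (SE 0.32, edgeR adjusted p = 0.000105). *H2-D1* was at 144, 134, 152 and 166 CPM and then at 613, 530, 319 and 588 CPM, a log2 fold change of 1.81 (SE 0.24). *H2-K1* was at 119, 113, 191 and 181 CPM and then at 474, 290, 261 and 266 CPM. Its groups did not overlap, yet its log2 fold change of 1.12 (SE 0.27) was not called, with an adjusted p of 0.0244. It was called without cKO 3 DPI replicate 3 (1.22, adjusted p = 0.00096), with DESeq2 (0.00352), with library size alone (0.00781), with the 10-count filter (0.00319) and with all 16 libraries in 1 fit (0.00142). *Tapbp* went from 66.2, 60.3, 45.6 and 87.6 CPM to 167, 119, 147 and 188 CPM, a log2 fold change of 1.29 (SE 0.29, adjusted p = 0.0136). This call was lost in 6 of the 8 fits that left out 1 library, namely each but those without cKO 3 DPI replicate 2 or 3, and also with the replicate block (0.0455) and the abundance-scaled table (0.0676). *Tap1* overlapped between the groups, at 42.5, 26.6, 24.2 and 48.5 CPM without injury and 33.9, 49.2, 83.2 and 70.5 CPM after it, with a log2 fold change of 0.80 (SE 0.43, adjusted p = 0.410).

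*Ciita* was not called for injury in these libraries. It was at 50.8, 30.6, 62.7 and 44.5 CPM without injury and at 47.4, 54.6, 19.7 and 17.1 CPM at 3 DPI. The injured libraries fell into a pair near the uninjured level, both of prefix JH133, and a lower pair, both of prefix JH139. The log2 fold change was -0.42 (SE 0.47, edgeR adjusted p = 0.762).

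Markers of myeloid cells moved with the injury result. All 18 markers of that list were called higher at 3 DPI in controls, where 10.8% of all genes were. In cKO libraries 13 of 18 were, against 2.43% of all genes. Between uninjured libraries 10 of the 18 were tested, so others may have passed the filter on low counts only through the 3 DPI libraries. The summed level of the list in cKO libraries was 220 to 302 CPM without injury and 2196 to 7116 CPM at 3 DPI. *Lyz2*, the lysozyme of macrophages and neutrophils, went from 0.943 to 9.87 CPM in uninjured controls to 2040 to 2835 CPM. The sort had excluded CD45 and CD11b, yet *Ptprc* rose by a log2 fold change of 4.09 (SE 0.25) and *Itgam* by 4.75 (SE 0.37) in controls, and by 2.79 (SE 0.36) and 3.79 (SE 0.35) in cKO libraries. None of the 18 markers was at 0 in a control 3 DPI library, and *Cx3cr1* alone was at 0 in cKO 3 DPI replicate 3. In uninjured libraries at most 1 of the 18 was at 0. The list of 10 MuSC markers moved the other way, with 8 called lower in controls and 7 in cKO libraries, though *Cxcr4* was called higher in controls (0.85). Over all genes 1452 of 15356 were called lower in controls and 235 of 14578 in cKO libraries.

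Of 5 markers of dendritic cells tested in controls, *Itgax* alone was called, and it is also carried by macrophages. *Pdgfra*, *Dcn*, *Lum* and *Ly6a*, of the 8 fibro-adipogenic markers, were called higher in controls and *Dpt* lower. In controls 2 B cell and 2 T and NK cell markers had enough counts to be tested, and none was called. The part that admixed cells of these types had in the rise of the presentation genes was not tested. In bulk libraries fewer cells of a type and less RNA per cell cannot be told apart.

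The library with the lowest myeloid sum at 3 DPI was cKO replicate 3, with 2196 CPM against 4809 to 7116 CPM in the other cKO 3 DPI libraries. The summed *H2-Aa*, *H2-Ab1*, *H2-Eb1* and *Cd74* level was 337 CPM there against 447 to 576 CPM in the other three. This sum came to 15.4% of the myeloid sum in that library and to 6.28% to 12.0% of it in the others. In control 3 DPI libraries it was 588 to 749 CPM, or 7.66% to 10.5% of the myeloid sum. Without injury the same 4 genes summed to 15.9 to 33.2 CPM in controls and 27.2 to 41.8 CPM in cKO libraries, or 6.83% to 23.1% and 11% to 19.0% of the myeloid sum. The ranges of that share overlapped between uninjured and injured libraries in both genotypes.

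**Figure D4:**
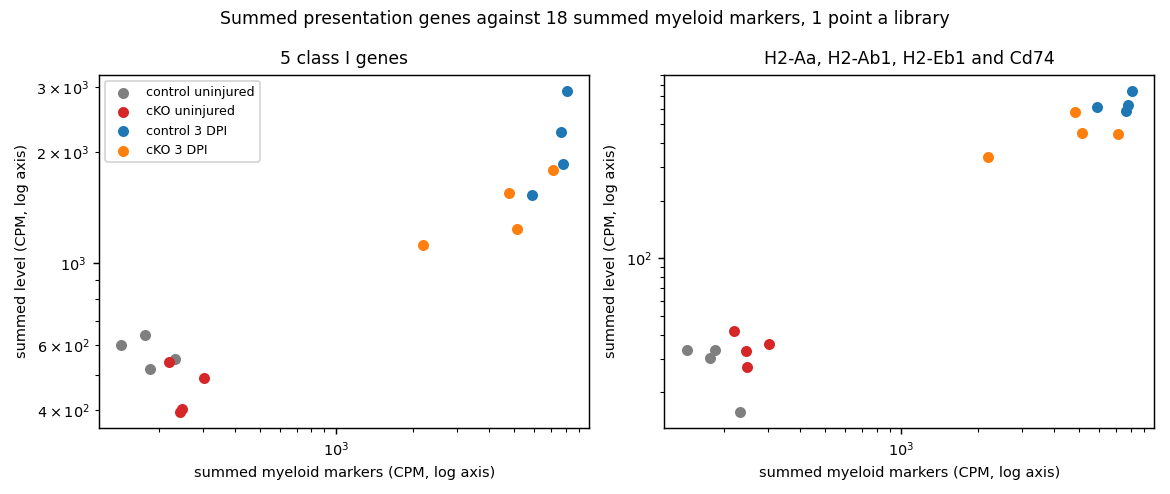
Summed level of the 5 class I genes (left) and of H2-Aa, H2-Ab1, H2-Eb1 and Cd74 (right) against the summed level of 18 myeloid markers, both in CPM on log axes; each point is 1 library. Injured libraries of both genotypes lie apart from uninjured ones on both axes, and cKO 3 DPI replicate 3, at 2196 CPM of myeloid markers, has the lowest class II sum of the injured libraries (337 CPM).

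Whether injury changed a gene differently in the 2 genotypes was tested as an interaction over all 16 libraries. None of the 10 genes was called by edgeR, DESeq2 or limma. With edgeR, 0% of 16822 genes were called as rising more in cKO libraries and 0.0178% as rising less, while DESeq2 called 9 and 15 genes and limma 45 and 78. With edgeR 3.57% of the 16822 genes lay above 0 and 2.17% below 0 at an unadjusted p below 0.05. That p was reached by 3 members with either edgeR or DESeq2 and by 4 with limma. By edgeR these were *Ciita* (log2 difference -1.52, SE 0.58), *H2-Aa* (-1.68, SE 0.67) and *Tap1* (-1.29, SE 0.55). Each had the lower injury log2 fold change in cKO libraries, where none of them was called, and *Ciita* was at -0.42. Their edgeR adjusted p values in the interaction were 0.73 to 0.791. *Ptprc* differed in the same direction (-1.20, SE 0.42), as did 17 of the 18 myeloid markers, and their part in these values was not tested. The heavy chains and their light chain had differences close to 0, with *H2-K1* at 0.02 (SE 0.34), *H2-D1* at 0.00 (SE 0.35) and *B2m* at -0.07 (SE 0.40). The signs of *H2-K1* and *H2-D1* changed with the processing, and that of *B2m* only when 1 library was left out. At 2 SE either side, the interval for *B2m* reached from -0.87 to 0.73, which holds 1.5-fold differences in either direction.

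Without injury, *Ciita* was higher in uninjured cKO MuSCs than in controls by 2.65-fold, while the class II chain genes, known to be under its control, stayed at a few counts. This comparison asked what loss of TRF2 changes in resting cells. *Ciita* was at 50.8, 30.6, 62.7 and 44.5 CPM in cKO libraries, or 30 to 44 counts, against 25.0, 11.7, 17.0 and 22.6 CPM, or 13 to 28 counts, in controls. Every cKO library was above every control. The log2 fold change was 1.41 (SE 0.36, edgeR quasi-likelihood adjusted p = 0.0113). It was called by DESeq2 as well, but not by limma (adjusted p = 0.0344) or in an edgeR fit over all 16 libraries (0.175). With the abundance-scaled table, which gave TPM, the log2 fold change was 1.37 and was not called (edgeR adjusted p = 0.179). Of the 8 fits that left out 1 library, 7 lost the call, with an adjusted p of 0.0203 to 0.0734. The call was kept only without cKO replicate 2. Of 14048 genes tested, 0.584% were called higher and 2.63% lower, and 3.57% were higher and 8.84% lower in every cKO library.

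On the per-length scale *Ciita* was at 24.8 ± 7.54 TPM (SD, n = 4) in uninjured cKO libraries and 7.93 ± 2.31 TPM in controls. *Dexi*, on the opposite strand over part of *Ciita*, was at 11.5 ± 7.59 CPM in cKO libraries and 16.2 ± 5.59 CPM in controls, so its mean was not higher beside that of *Ciita*. The library kit keeps the strand, and whether the counting used it is not given in the sources used here.

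The 4 class II genes below *Ciita* did not pass the filter on low counts in this comparison. With no filter, *H2-Aa* had a log2 fold change of 0.94 (SE 0.82), *Cd74* of 0.40 (SE 0.70), *H2-Ab1* of 0.34 (SE 0.75) and *H2-Eb1* of -0.38 (SE 0.78), with edgeR adjusted p values of 0.633 to 0.873. *H2-Aa* rested on 3 to 11 counts a library here, and the size of change that could be detected in it was not tested. In *Cd74* the highest cKO value, 25.6 CPM in replicate 4, stood beside 0 CPM in replicate 1.

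None of the 5 class I genes was called, and 1, *Tap1*, had an unadjusted p below 0.05, as had 8.98% of all genes in the higher direction. *Tap1* was at 42.5, 26.6, 24.2 and 48.5 CPM in cKO libraries and 12.5, 15.3, 17.0 and 34.9 CPM in controls, where the fourth control overlapped the cKO range. Its log2 fold change was 0.94 (SE 0.39, edgeR adjusted p = 0.164). *H2-D1* was lower in every cKO library, at 134 to 166 CPM against 168 to 231 CPM, with a log2 fold change of -0.34 (SE 0.20, adjusted p = 0.343). *B2m* (-0.43, SE 0.26), *Tapbp* (-0.29, SE 0.26) and *H2-K1* (-0.17, SE 0.21) overlapped between genotypes, and the sign of the last turned when library size alone was used for scaling. Of the 10 myeloid markers tested here 9 lay above 0 and none was called, and 7 of 10 MuSC markers were called lower in cKO libraries. All 5 dendritic cell and both T and NK cell markers tested lay above 0, and the 1 B cell marker tested below 0, with none called. Summed over the whole lists, B cell markers were at 20.8 to 40.4 CPM in controls and 35.1 to 67.3 CPM in cKO libraries, and T and NK cell markers at 35.7 to 55.7 CPM and 44.2 to 94.5 CPM. *Dcn*, a fibro-adipogenic marker (1.20, SE 0.25), and *Rgs5*, a pericyte marker (1.33, SE 0.35), were called higher and *Dpt* (-1.65, SE 0.23) lower. The part of these cell types in the values above was not tested.

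At 3 DPI, none of the 10 genes differed by the test between injured controls and the libraries labelled TRF2 knockout, and 0 of the 10 had an unadjusted p below 0.05 by edgeR or by DESeq2 (1 by limma). With edgeR 0% of 14559 genes were called higher and 0% lower, where DESeq2 called 5 and 17 genes, while 6.48% were lower in every cKO library. At an unadjusted p below 0.05 by edgeR, 5.78% of all genes were higher and 3.58% lower. Without cKO replicate 3 no member was called, 3 had an unadjusted p below 0.05, and over all genes 3 were called higher and 13 lower. Values for 9 of the 10 members lay below 0 on the log2 scale, and without that library all 10 did, from -0.85 for *H2-Aa* to -0.04 for *Ciita*. The median over all genes was 0.001 with every library and 0.024 without that one. All 10 genes were read in the same libraries, so their signs are not separate observations. *H2-Ab1* alone was lower in every cKO library, by the margin of 123.9 against 124.1 CPM, with a log2 fold change of -0.68 (SE 0.35, edgeR adjusted p = 0.563) and an interval of 2 SE from -1.38 to 0.02.

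*H2-Aa* had a log2 fold change of -0.74 (SE 0.41), *B2m* of -0.58 (SE 0.28), *Tap1* and *Tapbp* of -0.43 (SE 0.36 and 0.23), *H2-D1* of -0.42 (SE 0.25), *Cd74* of -0.33 (SE 0.26) and *H2-K1* of -0.23 (SE 0.25). *Ciita* was at -0.20 (SE 0.45), and *H2-Eb1* was the exception at 0.12 (SE 0.28). Between the 2 libraries of each genotype that share the prefix JH133, *H2-K1* was at 0.15, *H2-Eb1* at -0.17 and *Ciita* at 0.18, and *H2-Aa* was at -1.51. The myeloid list moved with these values, since 17 of its 18 markers were below 0 and 0 were called, with *Ptprc* at -0.60 (SE 0.24) and a median of -0.55. All 10 MuSC markers were below 0 too, with a median of -0.75, 4 at an unadjusted p below 0.05 and 0 called. The part of either cell type in the values was not tested.

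Other genes of the pathway gave the setting of these changes. In controls at 3 DPI 10.8% of all genes were called higher. Of 13 genes of class I processing and loading 10 were called higher and none lower, with a median log2 fold change of 1.57 against 0.07 over all genes. Among them were the immunoproteasome subunits *Psmb9* (2.21, SE 0.59), *Psmb8* (1.94, SE 0.30) and *Psmb10* (1.60, SE 0.36), the loading complex chaperone *Calr* (2.18, SE 0.21) and its partner *Pdia3* (1.82, SE 0.21). *Nlrc5*, which plays for class I genes the role of CIITA, also rose (1.94, SE 0.30). In cKO libraries 2 of 11 tested genes of that list, *Calr* (2.13, SE 0.27) and *Pdia3* (1.87, SE 0.25), were called higher, where 2.43% of all genes were.

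Of 14 other class I genes tested in controls, *H2-T23*, a ligand of NK cell receptors (1.71, SE 0.28), and *H2-T24* (2.52, SE 0.43) were called higher and *Fcgrt*, the neonatal Fc receptor (-0.90, SE 0.24), lower. That count of 2 higher was near the 10.8% of all genes called higher. In cKO libraries *H2-T23* was called as well (1.87, SE 0.43), 1 of 11 where 2.43% of all genes were called higher.

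Class II processing genes were called higher in 8 of 17 cases in controls, against 10.8% of all genes, and lower in 1. Between uninjured libraries 12 of that list were tested, so some may have passed the filter on low counts only through the 3 DPI libraries. Of the lysosomal proteases that trim the invariant chain and antigens, *Ctss* was at a log2 fold change of 8.49 (SE 0.44), *Lgmn* at 5.47 (SE 0.24) and *Ctsl* at 2.91 (SE 0.22). The lysosomal reductase *Ifi30* was at 4.57 (SE 0.27). The peptide exchange chains *H2-DMb1* (2.56, SE 0.60) and *H2-DMa* (1.83, SE 0.49) and the costimulatory genes *Cd86* (2.12, SE 0.48) and *Cd40* (1.29, SE 0.42) rose too. *Rfx5*, a subunit of the factor on the X box, fell by 0.84 (SE 0.26). In cKO libraries *Ctss*, *Lgmn*, *Ifi30* and *Ctsl* were called higher, 4 of 14 against 2.43% of all genes, at 6.97, 5.34, 4.13 and 3.74. Without injury *Ctsl* was lower in cKO libraries than in controls (-1.09, SE 0.24), where 2.63% of all genes were called lower. That was the 1 call of this list between genotypes.

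In controls at 3 DPI, where 10.8% of all genes were called higher, so were 7 of 18 interferon signalling genes. They included *Irf7* (4.31, SE 0.35), *Irf8* (2.42, SE 0.26) and the interferon gamma receptor chain *Ifngr2* (2.27, SE 0.37). *Socs3*, an inhibitor of cytokine signalling, was lower in both genotypes, by -1.29 (SE 0.20) in controls and -2.26 (SE 0.28) in cKO libraries. Of 31 interferon-stimulated genes tested in controls, 23 were called higher and none lower, among them *Isg15* (3.95, SE 0.42) and *Cxcl10* (3.09, SE 0.58). Between uninjured libraries 22 of that list were tested, so here too some may have passed the filter only through the 3 DPI libraries. In cKO libraries *Irf7* and *Irf8*, 2 of 18 signalling genes, and *Ifit3* and *Mx1*, 2 of 29 stimulated genes, were called higher. Of all genes 2.43% were called higher there. Between the genotypes 0 genes of either interferon list were called by edgeR. At an unadjusted p below 0.05 without injury were 1 of 18 signalling genes, higher, and 3 of 22 stimulated genes, 2 higher and 1 lower, where 8.98% of all genes were higher and 10.5% lower at that p. At 3 DPI 2 of 18 and 5 of 31 were lower, where 3.58% of all genes were. The lowest p without injury was that of *Iigp1*, a GTPase induced by interferon gamma (log2 fold change 1.68, SE 0.51, edgeR adjusted p = 0.0426).

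**Figure D5:**
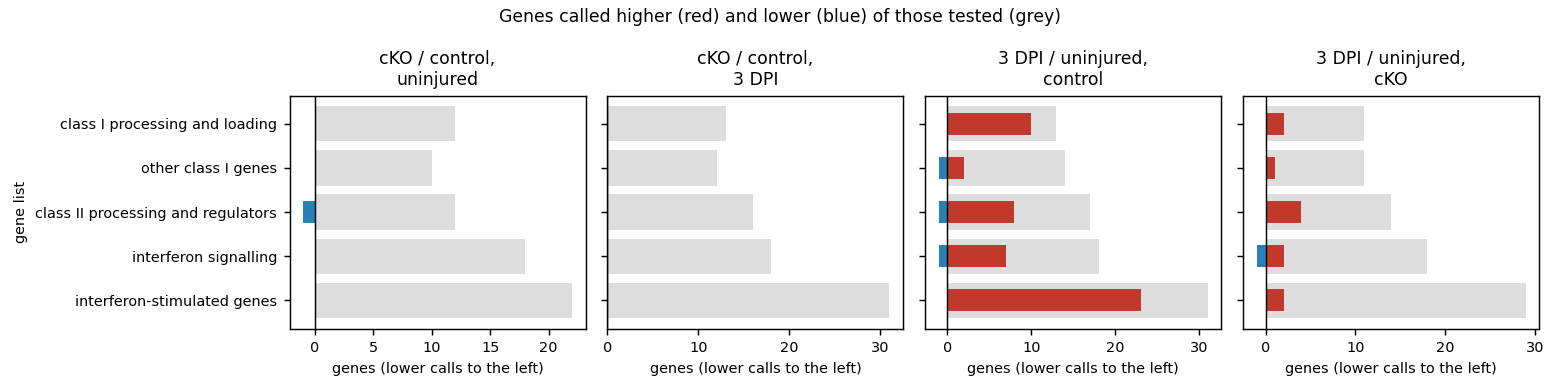
Number of genes called higher (red) and lower (blue, drawn to the left of 0) among those tested (grey) in 5 lists of pathway genes and the 4 comparisons. Calls gather in the injury comparison of controls, where 23 of 31 interferon-stimulated genes were called higher, and genotype at 3 DPI has none.

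Genes whose levels followed the members most closely were sought by Pearson correlation of log2 CPM over the 16 libraries among 10076 genes, a description in which all points share the split by injury. For *Cd74* these were *Cd83* (r = 0.974), *Slfn2* (0.970), *Cd68* (0.968), *Pld4* (0.968) and *Irf8* (0.966). For *B2m* they were *Npc2* (0.984), *Grn* (0.974), *Pim1* (0.973), *Snx5* (0.971) and *Msn* (0.971). For *H2-K1* they were *Cltc* (0.955), *Mapk6* (0.942), *Tubb5* (0.941), *Cyfip1* (0.940) and *Cmip* (0.937). Between the members themselves, r was 0.957 for *H2-D1* and *B2m* and 0.902 for *H2-Ab1* and *Cd74*. *Ciita* followed the other class II genes less closely, with r of 0.253 with *Cd74*, 0.258 with *H2-Aa*, 0.293 with *H2-Ab1* and 0.200 with *H2-Eb1*.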

How the data were processed

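The deposited gene tables hold estimated counts, which the authors made from trimmed CORALL total RNA reads with STAR and Salmon on GRCm38 (the submitters' processing notes name Trim Galore 0.6.7, STAR 2.6.1d and Salmon 1.5.2). A second deposited table of estimated counts, scaled by transcript abundance, gave TPM. Whether the kit's molecular identifiers were used is not given in the sources used here. Groups came from the labels, which call the 4 samples of a group biological replicates. Counts were rounded, filtered for expression within each comparison, scaled by TMM and fitted with edgeR 4.0.16 (robust quasi-likelihood, all genes, Benjamini-Hochberg adjustment, R 4.3.3); each comparison used its own libraries and the interaction used all 16. Calls needed an adjusted p below 0.02 and a fold change above 1.5. SEs are on the log2 scale. A prior count of 2 was used only for log2 CPM values, which served limma and the correlations. Totals were 620506 to 1351130 counts, and counting error at this depth limits low genes. Alternatives were DESeq2 1.42.0, limma 3.58.1, other scalings and filters, the abundance-scaled table, the replicate number as a block, shared code prefixes and leaving out each library. All 10 members, some of the called genes of the pathway and marker lists, the 5 genes most like *H2-K1*, *B2m* and *Cd74*, the genes of the sort and *Terf2* were named. For the interferon lists without injury, which had no call, the gene of lowest p was named. Members and lists were chosen with earlier results of these data known.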

Additional observations from a re-analysis of the deposited data

Results flagged for a closer look

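Of 40 groups of 4 libraries (10 genes in 4 groups), 2 held a library far from the other three by Dixon's criterion, which chance alone gives in about 1 of 20 groups. *H2-K1* in cKO 3 DPI replicate 1 was at 474 CPM, with the other libraries of that group at 261 to 290 CPM. *H2-Ab1* in control 3 DPI replicate 3 was at 195 CPM, with the others at 124 to 136 CPM.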

How the results depend on the processing

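The call of *Ciita* without injury, 1 gene, became 0 with limma, with all 16 libraries in 1 fit and with the abundance-scaled table, and 0 to 1 when 1 library was left out. The 10 calls for injury in controls became 6 with a minimum of 10 counts in every library, where 6 members were tested, 9 with all 16 libraries or the abundance-scaled table, and 9 to 10 when 1 library was left out. With prefix JH140 or JH139 only, the lone uninjured library has no spread of its own, so the calls of those fits are not given. The 6 calls for injury in cKO libraries became 4 with the 10-count filter (6 members tested) and 5 with no filter. They became 4 with the abundance-scaled table, where *Cd74* was lost (edgeR adjusted p = 0.0397). Limma gave 7, and DESeq2 or all 16 libraries gave 8. When 1 library was left out there were 5 to 8, with 8 reached without cKO 3 DPI replicate 3. The genotype comparison at 3 DPI and the interaction gave 0 calls among the members in every setting run. Replicate numbers did not pair the samples (no comparison had all 4 correlations of deviations above 0.1). The replicate block gave 1 call for genotype without injury, 10 for injury in controls and 5 for injury in cKO libraries. It gave 0 for genotype at 3 DPI and 0 in the interaction. Signs turned for *H2-K1* without injury (0.014 with library size alone), and at 3 DPI for *H2-K1* (0.15 with prefix JH133), *H2-Eb1* (-0.032 with limma, -0.165 with JH133, and -0.166 to 0.249 when 1 library was left out, the lowest without cKO replicate 3) and *Ciita* (0.179 with JH133, and -0.520 to 0.007 when 1 library was left out, the highest without cKO replicate 4). In the interaction *H2-K1* was at -0.030 with DESeq2, -0.029 with limma, -0.031 with median-of-ratios factors, -0.138 with library size alone, -0.112 with no filter and -0.058 with the 10-count filter, and between -0.196 and 0.190 when 1 library was left out. *H2-D1* was at 0.075 with limma and 0.036 with the summed counts of *H2-K1*, *H2-D1* and *H2-L*. When 1 library was left out, the interaction spanned -0.138 to 0.166 for *H2-D1*, -0.267 to 0.168 for *B2m*, -0.318 to 0.068 for *Tapbp* and -1.126 to 0.111 for *Cd74*. The cause was not tested. Under the alternatives there were 880 values of single members, those of the summed counts and of the prefix fits included. Of these, 805 kept direction and side of the threshold, 31 lost the call, 10 gained it and 34 changed sign. Library size alone moved the median of all genes from 0.06 to 0.24 without injury, from 0.00 to 0.11 at 3 DPI, from 0.07 to 0.23 for injury in controls, from 0.01 to 0.13 for injury in cKO libraries and from 0.03 to -0.12 in the interaction, and the injury calls it gave were 10 in controls and 7 in cKO libraries.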
